A study of Macaca mulatta with 33 samples.

Results

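Livers of 10 macaques that shared one diet history were compared with each other. The animals belong to the CD/CD group, whose mothers ate a control diet (CD) through gestation and lactation and which were weaned to the control diet themselves. They are 10 of the 33 animals of the study, all sampled at 3 years of age, with 1 liver library per animal. The CD/CD animals fall into a pair of number ranges by the animal number in their titles. In the first range, called series 30-31 here, are 30586, 30637, 30639, 30726 and 31266. The second range, called series 33, holds 33215, 33316, 33335, 33573 and 33657. The labels used here do not say what the number stands for, so the ranges are a way of dividing the animals and not a treatment. Relatedness, sex and date of collection are not given in the labels used here, and p-values take the animals as independent. The labels name the species as Macaca mulatta, the rhesus macaque, but the study's design calls the animals Japanese macaques. A further 5 animals, 30638, 30734, 33337, 33499 and 33500, come from the WSD/CD group, whose mothers ate a western-style diet (WSD) and which were weaned to the control diet. They serve below as livers that the CD/CD comparison did not use.

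The liver is built mainly of hepatocytes, which make most plasma proteins, store and release glucose, detoxify ammonia, and make and secrete bile acids. Sinusoidal endothelial cells, Kupffer cells (the resident macrophages) and stellate cells line and surround the blood channels between them. Many hepatocyte genes follow feeding, fasting, the time of day and inflammation, so livers of animals on one diet can differ in their transcriptomes.

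The table gives FPKM, a level that divides a gene's read pairs by its length and by the size of the library. All tests used log2(FPKM + 1), a scale that understates the change of low genes. A mean of at least 0.5 FPKM over the 10 livers was reached by 12254 genes, and these were tested with limma. A gene is called where its Benjamini-Hochberg adjusted p is under 0.05. Differences are coded as series 33 minus series 30-31, so a positive value is higher in series 33. Values per animal follow the order of the animal numbers given above.

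The livers carried hepatocyte RNA at high levels. The summed FPKM of 14 hepatocyte markers was 28701 to 36170 in series 30-31 and 34895 to 39031 in series 33. SERPINA1, which encodes the plasma protease inhibitor alpha-1 antitrypsin, had 13746, 13896, 14944, 17014 and 16040.1 FPKM in series 30-31 and 17326, 19007, 18477, 17013 and 15349 FPKM in series 33. Albumin is not reported because its values are missing in most columns. The highest sum of any other cell type's markers was 1138 FPKM, for macrophage markers in 31266. Genes with an FPKM above 0 numbered 15519 to 17180 per library. FPKM does not give the depth. A rough relative depth, from the steps between the lowest values, was 1.10 ± 0.452 (SD, n = 5) in series 33 and 0.84 ± 0.220 in series 30-31 (exact two-sided permutation p = 0.278). The 10 highest genes took 22.02% ± 1.82 of summed FPKM in series 33 and 24.7% ± 2.72 in series 30-31 (exact permutation p = 0.119). Missing values, those of albumin among them, counted as 0 in this share. With 5 livers against 5, the smallest p the permutation test can give is 0.00794.

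The mitochondrial genome encodes 13 proteins of the respiratory chain and ATP synthase, and their genes took 2.44%, 3.46%, 3.37%, 3.06% and 1.33% of summed FPKM in series 30-31. In series 33 they took 1.92%, 1.77%, 1.75%, 1.94% and 2.43%. Missing values counted as 0 in these sums and in the library totals. Of the 13 genes, 2 were below the filter or missing. The ranges overlapped through 31266, which had the lowest share of the 10 livers. The means were 1.96% ± 0.276 and 2.73% ± 0.880, a difference of -0.77 percentage points (exact two-sided permutation p = 0.0873, adjusted p = 0.298 over the 5 library measures). Without 31266 the difference was -1.12 percentage points (exact permutation p = 0.0159, not adjusted). This is the smallest p the test can give for 4 livers against 5. It was reached by leaving out the liver that made the ranges overlap, so it is no support. The share was higher in 4 of the 5 livers of series 30-31 than in each liver of series 33, and its part in the gene results below was not tested. With the share as a covariate, 1 gene was called and 3446 had an unadjusted p under 0.05 (limma), and the 1666 genes called without it kept their direction.

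The first principal component held 37.5% of the variance over all tested genes and separated the number ranges. Scores in series 30-31 were -7.68, -37.8, -17.2, -4.57 and -43.7, and scores in series 33 were 25.2, 19.2, 31.2, 35.1 and 0.24. No liver of one range lay among the other, but 33657 stood next to 30726 and 30586. At the far ends were 31266 and 30637 on one side and 33573 and 33335 on the other. The second component held 14.9% and set 31266 and 33335, one liver of each range, apart from the remaining 8.

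**Figure D1:**
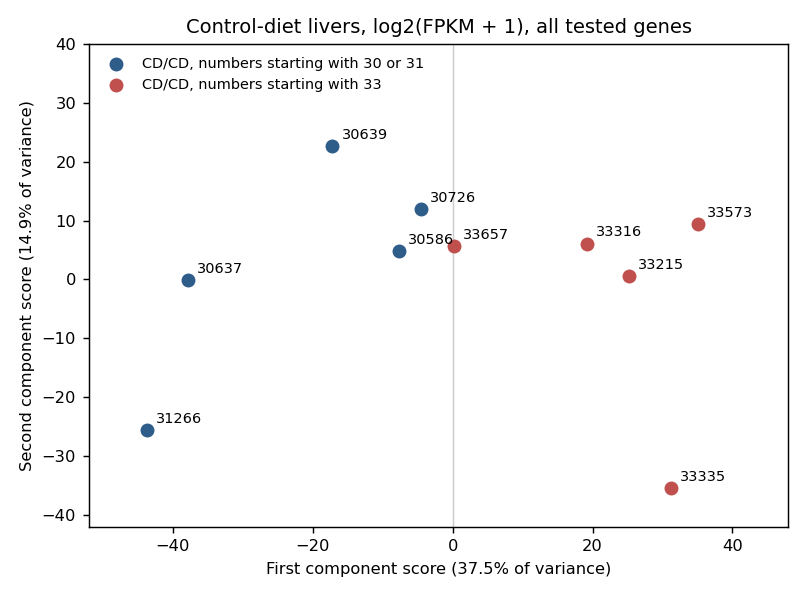
First against second principal component score of the 10 CD/CD livers (log2(FPKM + 1), all tested genes), 1 point per animal, blue for series 30-31 and red for series 33. The first component, with 37.5% of variance, places all 5 livers of series 33 to the right of the 5 of series 30-31, with 33657 at 0.24 nearest to the other range.

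Across all tested genes the difference between the number ranges took 28.6% of the sum of squares. The remaining spread, between livers of the same range, had a median SD of 0.25 on the log2(FPKM + 1) scale, with 0.15 at the 10th and 0.48 at the 90th percentile of genes. The median SD was 0.24 within series 33, 0.24 within series 30-31 and 0.21 among the 4 livers of series 30. In 169 genes (1.38%) the SD within ranges was above 1. Spearman correlations between livers, across genes, had a median of 0.949 within series 33 (0.934 to 0.962), 0.940 within series 30-31 (0.920 to 0.961) and 0.927 between the ranges (0.861 to 0.964). The intervals overlapped, so a pair from different ranges could be as alike as a pair from the same range.

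Between the number ranges 1666 genes were called, which is 13.6% of those tested. Of these, 1255 (10.2% of tested genes) were higher in series 33 and 411 (3.35%) lower. At an unadjusted p under 0.05 there were 3984 genes, and the median log2 difference over all tested genes was 0.03. The largest differences among called genes were 2.66 and -3.13, and the median size was 0.68. FPKM values of the ranges did not overlap for 868 genes higher in series 33 (7.08%) and 301 lower (2.46%), 9.54% together, and 908 of these genes were also called. The balance of directions depended on the scaling. Under median-of-ratios scaling 1100 were higher and 697 lower, and under quantile normalization 1040 and 710, against 1255 and 411 as deposited. The higher genes were thus 61.2%, 59.4% and 75.3% of calls.

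The number of calls rested on single livers. With 1 liver left out it ran from 0 to 2513. Leaving out 30637 or 33573 left 0 genes called, with 3244 and 3333 genes at an unadjusted p under 0.05 and smallest adjusted p-values of 0.0543 and 0.051 (limma). Leaving out 33215 left 3 calls. It left 531 without 30639, 743 without 31266, 675 without 33316 and 558 without 33335. The count moved little without 30586 (1526) or 30726 (1752). Without 33657, the liver between the ranges, 2513 genes were called. The lists and genes below are therefore described with their values in each liver.

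**Figure D2:**
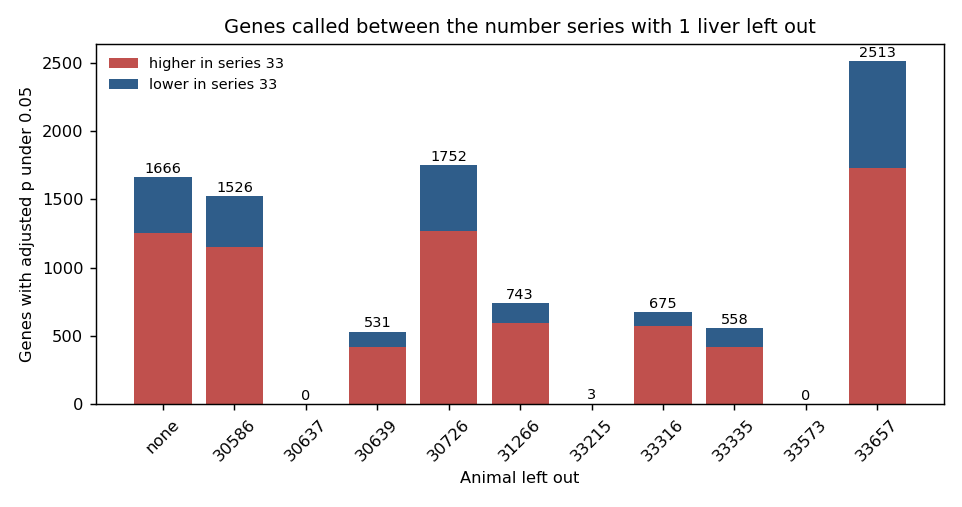
Number of genes with an adjusted p under 0.05 (vertical axis) in the comparison of all 10 livers and with each animal left out in turn (horizontal axis), split into genes higher (red) and lower (blue) in series 33. The count is 1666 with all livers, 0 without 30637 or 33573, and 2513 without 33657.

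Genes named for their size had to have their own symbol and a mean of at least 1 FPKM in the higher range. Increases of up to 2.66 were passed over by these limits. Among the 10 largest increases within them were genes for receptors, carriers and enzymes. GHR encodes the growth hormone receptor. Its FPKM was 10.9, 3.17, 10.5, 13.8 and 4.07 in series 30-31 and 61.95, 23.6, 24.8, 41.8 and 14.7 in series 33, with no overlap (log2 difference 1.86, SE 0.42, adjusted p = 0.0225). FGFR2, a fibroblast growth factor receptor, was at 10.2, 3.81, 8.604, 12.6 and 4.39 FPKM in series 30-31 and at 34.95, 18.8, 58.9, 28.7 and 13.4 FPKM in series 33, also without overlap (log2 difference 1.78, SE 0.39, adjusted p = 0.022). In both genes 33657 was the lowest liver of series 33, and 30637 and 31266 were the lowest of series 30-31.

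SERPINA10 encodes an inhibitor of coagulation factors that acts together with protein Z. Values of 17.3, 6.695, 14.4, 24.6 and 9.14 FPKM in series 30-31 and 65.9, 52.01, 53.9, 69.1 and 23.2 FPKM in series 33 gave a log2 difference of 1.84 (SE 0.35, adjusted p = 0.0199). The ranges overlapped only where 30726 exceeded 33657. ABCC9, which encodes a regulatory subunit of ATP-sensitive potassium channels, had 3.37, 1.91, 2.32, 3.82 and 1.69 FPKM in series 30-31 against 9.21, 11.2, 15.2, 12.8 and 5.34 FPKM in series 33 (log2 difference 1.67, SE 0.25, adjusted p = 0.0199). SLC4A4, a sodium bicarbonate cotransporter, had 3.04, 2.11, 2.502, 3.04 and 1.91 FPKM against 7.51, 7.78, 16.9, 18.8 and 4.52 FPKM (log2 difference 1.63, SE 0.31, adjusted p = 0.0199). In these 2 genes every liver of series 33 exceeded every liver of series 30-31.

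The remaining large increases were RYBP, a component of Polycomb complexes, ASB13, a substrate adaptor of ubiquitin ligases, PANK1, which catalyses the first step of coenzyme A synthesis, PPARGC1A and CPS1. Their log2 differences were 1.73, 1.70, 1.59, 1.64 and 1.58, and the adjusted p-values lay between 0.0199 and 0.031. Only ASB13 and PPARGC1A did not overlap between the ranges.

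The 10 largest decreases within the same limits were genes that reached at most 97.3 FPKM in any liver. BIRC5 encodes survivin, a protein of cell division and an inhibitor of apoptosis. It was at 12.7, 24.1, 12.1, 14.1 and 16.4 FPKM in series 30-31 and at 4.99, 5.87, 2.35, 4.91 and 5.29 FPKM in series 33, without overlap (log2 difference -1.57, SE 0.22, adjusted p = 0.0199). FAU, which encodes a ubiquitin-like protein fused to a protein of the small ribosomal subunit, had 48.7, 97.3, 51.4, 40.7 and 77.2 FPKM against 23.7, 19.6, 15.5, 18.1 and 30.9 FPKM (log2 difference -1.47, SE 0.25, adjusted p = 0.0199). TNNT2, the troponin T of heart muscle, had 1.67, 11.8, 4.41, 2.03 and 7.38 FPKM in series 30-31, a wide spread, and 1.18, 0.839, 0.813, 0.718 and 0.979 FPKM in series 33 (log2 difference -1.51, SE 0.37, adjusted p = 0.0267). None of the 3 overlapped.

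SHISAL2B had the largest log2 difference of all called genes, and series 33 was split in it. It was at 23.6, 40.4, 32.7, 25.7 and 13.2 FPKM in series 30-31. In series 33 it was at 66.1 FPKM in 33215, the highest value of the 10 livers, and at 0.876, 0.0919, 0.51 and 0.226 FPKM in the other 4 (log2 difference -3.13, SE 0.95, adjusted p = 0.0491). CYP21A2, the steroid 21-hydroxylase, fell from 30.4, 85.9, 36.1, 34.7 and 32.6 FPKM to 24.3, 13.5, 11.2, 15.2 and 8.45 FPKM (log2 difference -1.49, SE 0.31, adjusted p = 0.0203). Humans carry a close copy of this gene as a pseudogene, so its reads are uncertain. H4C1, a histone H4 gene with many near-identical copies, was listed at 0 in every liver of series 33 and in 30586, and at 2.097, 1.998, 1.54 and 1.73 FPKM in the other 4. H4C1 passed the filter on low values only through series 30-31, so its call is no support.

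DOC2B, a calcium sensor of vesicle release, had a log2 difference of -1.60. TSPYL2, a nuclear protein of the nucleosome assembly family, had -1.20. SLFNL1 and FAM167B had -1.24 and -1.24. Except for DOC2B these genes did not overlap between the ranges.

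**Figure D3:**
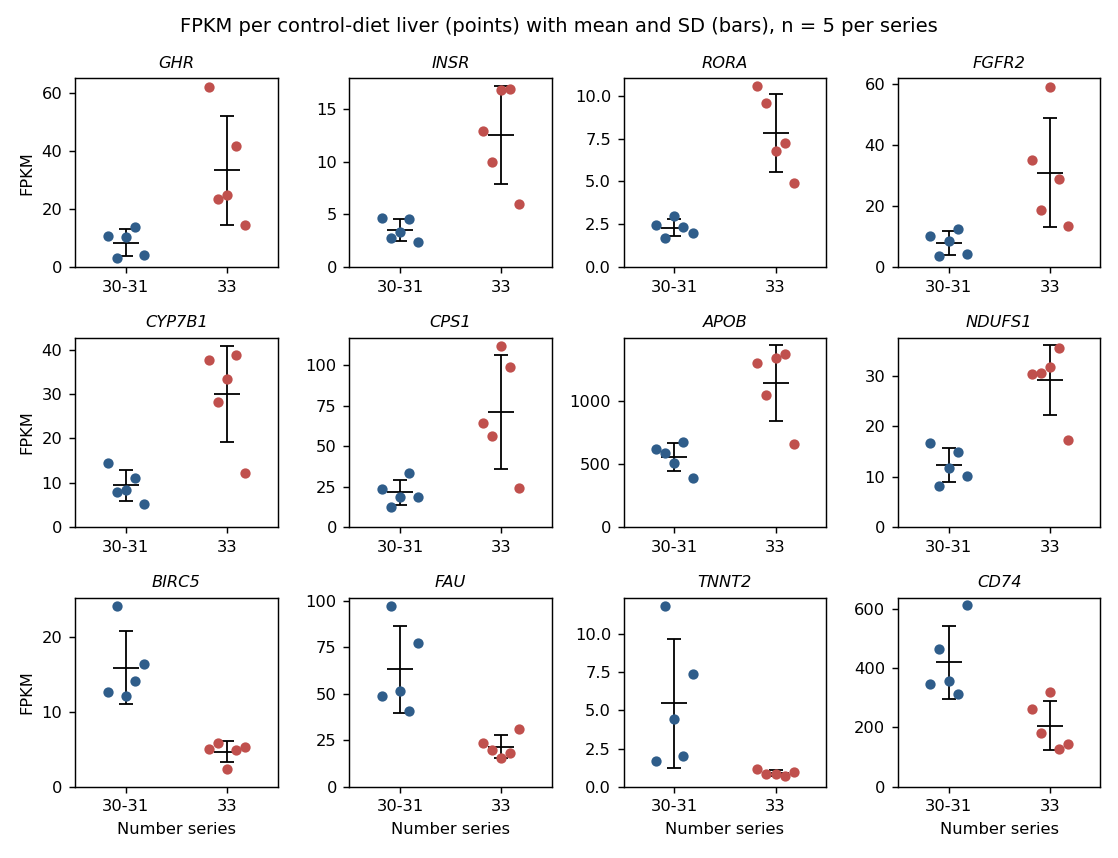
FPKM (vertical axes, from 0) of 12 genes in each CD/CD liver, blue points for series 30-31 and red points for series 33, in animal number order within a range, with the mean as a bar and the SD as whiskers (n = 5 each). In BIRC5 all series 33 values are at or under 5.87 FPKM and all series 30-31 values at or over 12.1 FPKM, while in CYP7B1 the lowest series 33 liver, 33657, lies at 12.1 FPKM, below 14.3 FPKM in 30586.

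Of 656 different genes in the lists of liver pathways and cell markers that were tested, 88 were called, 64 higher and 24 lower. This is 13.4%, next to 13.6% of all tested genes, so the lists as a whole were called about as often as any genes. The lists differed in their direction and median, which are given here beside the median of 0.03 over all genes. Over all tested genes 10.2% were called higher and 3.35% lower. A list count near these shares is not read as a result about the list.

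Genes of glucose release and glycogen were the list with the highest median, 0.59. Of 19 tested members 7 were higher and 0 lower. INSR, the insulin receptor, was at 4.63, 2.76, 3.36, 4.57 and 2.36 FPKM in series 30-31 and at 12.9, 9.94, 16.8, 16.9 and 5.998 FPKM in series 33, without overlap (log2 difference 1.52, SE 0.26, adjusted p = 0.0199). PPARGC1A, a coactivator that drives gluconeogenic and mitochondrial genes, was at 5.53, 5.21, 5.23, 7.93 and 5.93 FPKM and at 12.1, 18.1, 40.1, 41.8 and 9.32 FPKM (log2 difference 1.64, SE 0.36, adjusted p = 0.0221). Its level in 33335 and 33573 stood far above the other 3 livers of series 33.

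GYS2, the liver glycogen synthase, had 42.4, 22.2, 25.4, 38.2 and 33.5 FPKM in series 30-31 and 70.04, 77.8, 161, 129.8 and 40.4 FPKM in series 33 (log2 difference 1.42, SE 0.33, adjusted p = 0.0237). SLC2A2, the glucose transporter of the hepatocyte membrane, had 107, 45.9, 80.7, 91.4 and 49.9 FPKM against 144, 146, 138, 152 and 110.5 FPKM (log2 difference 0.94, SE 0.23, adjusted p = 0.0264). The catalytic subunit of glucose-6-phosphatase (G6PC), the glycogen phosphorylase PYGL and the pyruvate kinase PKLR were called too, at log2 differences of 1.003, 0.59 and 0.91. The phosphoenolpyruvate carboxykinase PCK1, named after its values were seen, went the other way at -0.49 and was not called (adjusted p = 0.0899).

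Bile acid genes were called most often, with 8 of 17 members higher and 0 lower and a median of 0.45. CYP7B1 hydroxylates oxysterols in the alternative pathway of bile acid synthesis. Its FPKM was 14.3, 7.98, 8.28, 11.1 and 5.28 in series 30-31 and 37.6, 28.1, 33.3, 38.8 and 12.1 in series 33, with 33657 inside the lower range (log2 difference 1.54, SE 0.31, adjusted p = 0.0203). The canalicular bile salt pump ABCB11 was at 20.5, 11.8, 13.7, 20.9 and 8.36 FPKM and at 32.6, 31.7, 47.3, 48.4 and 19.1 FPKM (log2 difference 1.20, SE 0.29, adjusted p = 0.0256), and here too 33657 overlapped.

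SLC10A1, which takes bile acids up from blood, had 107, 66.1, 94.2, 147 and 56.4 FPKM in series 30-31 and 153, 148, 285, 169.5 and 173 FPKM in series 33 (log2 difference 1.01, SE 0.26, adjusted p = 0.0312). ABCC2, a canalicular exporter of conjugates, had 6.93, 4.15, 6.27, 8.14 and 4.596 FPKM against 17.8, 10.3, 12.98, 11.3 and 8.19 FPKM (log2 difference 0.89, SE 0.21, adjusted p = 0.0242). Neither overlapped. The synthesis enzymes CYP8B1 and HSD3B7, the conjugating enzyme BAAT and the uptake carrier SLCO1B3 were also called, at 1.41, 0.73, 0.82 and 0.89. CYP7A1, the rate-limiting enzyme of the classical pathway, was the single member with a negative difference, -0.44, and was not called (adjusted p = 0.401).

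Fatty acid oxidation and ketone genes had 4 of 25 members higher and 0 lower, with a median of 0.34, or 0.21 without 30637. The peroxisomal enzyme EHHADH and the nuclear receptor PPARA, which drives this pathway, were among them, at 0.63 and 0.87. Of 18 genes of the urea cycle and amino acid breakdown, 2 were higher and 0 lower (median 0.38, or 0.24 without 33335). These were CPS1, the first enzyme of the urea cycle, with 23.8, 12.6, 18.6, 33.5 and 18.6 FPKM in series 30-31 and 64.2, 56.5, 112, 98.99 and 24.1 FPKM in series 33 (log2 difference 1.58, SE 0.37, adjusted p = 0.0252), and the tyrosine aminotransferase TAT (1.15). Drug metabolism genes had 2 of 13 higher and 0 lower (median 0.36, or 0.58 without 33335), the bilirubin transferase UGT1A1 and the xenobiotic receptor NR1I2, at 1.14 and 0.85. Next to 10.2% called higher over all tested genes, the 2 of 18 and 2 of 13 are not read as a result about these lists.

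Clock genes had 4 of 17 members higher and 0 lower, with a median of 0.36, or 0.21 without 31266. RORA, a nuclear receptor that activates clock genes, was at 2.47, 1.695, 2.97, 2.38 and 2.02 FPKM in series 30-31 and at 10.6, 9.58, 6.77, 7.23 and 4.898 FPKM in series 33, without overlap (log2 difference 1.39, SE 0.18, adjusted p = 0.0199). NR1D2, a repressor of the clock, had 4.93, 2.599, 4.48, 6.496 and 2.97 FPKM against 12.7, 9.45, 15.9, 14.9 and 5.36 FPKM (log2 difference 1.23, SE 0.28, adjusted p = 0.0224). CLOCK and PER3 were called at 0.51 and 0.69, while CRY1, named after its values were seen, was at 0.07 (adjusted p = 0.704). Time of collection is not given in the labels used here.

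Fat synthesis went in both directions, with 2 of 17 genes higher and 1 lower. The acyltransferase DGAT2 and the carboxylase ACACB were higher at 0.65 and 0.64. ACSS2, which makes acetyl-CoA from acetate, was lower, with 21.2, 32.5, 21.3, 15.7 and 27.8 FPKM in series 30-31 and 11.2, 10.7, 6.32, 9.99 and 18.8 FPKM in series 33 (log2 difference -1.03, SE 0.25, adjusted p = 0.0278). In cholesterol synthesis 1 of 22 genes was higher, the isopentenyl isomerase IDI1 (0.63). The list median of 0.05 turned negative under both other scalings (-0.00142 and -0.03), and ran from -0.04 to 0.07 with 1 liver left out.

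The growth hormone axis had 1 of 11 genes higher (GHR) and 1 lower. The lower gene was IGF2, a growth factor of fetal life that human liver keeps making in adults, with 577, 710.5, 572, 519 and 589.5 FPKM in series 30-31 and 408, 351, 273, 303 and 551 FPKM in series 33 (log2 difference -0.69, SE 0.19, adjusted p = 0.0359). IGF1, the growth factor that growth hormone induces, named after its values were seen, was at 0.36 (adjusted p = 0.374).

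Of 59 cytosolic ribosomal protein genes, 0 were higher and 6 lower, with a median of -0.22. RPL30, of the large subunit, had 166, 238, 308, 188 and 262 FPKM in series 30-31 and 136, 139, 112, 176 and 155 FPKM in series 33 (log2 difference -0.67, SE 0.19, adjusted p = 0.0376), with an overlap through 30586 and 33573. RPS15, of the small subunit, had 119, 189, 187, 134 and 179 FPKM against 94.4, 119, 75.9, 116 and 115 FPKM (log2 difference -0.62, SE 0.18, adjusted p = 0.0413). Ribosomal protein genes have many processed copies, and their reads are uncertain. Among endoplasmic reticulum chaperones and stress genes, 4 of 19 were higher and 1 lower. SEL1L, a subunit of the ubiquitin ligase for misfolded proteins, was at 18.9, 12.8, 15.7, 20.05 and 17.8 FPKM in series 30-31 and at 37.6, 34.3, 38.8, 43.8 and 25.04 FPKM in series 33, without overlap (log2 difference 1.02, SE 0.17, adjusted p = 0.0199). ATF4, a transcription factor of the stress response, was lower (-0.56), and the chaperones CANX and HSP90B1 and the stress sensor ERN1 were higher (0.49, 0.71 and 0.64).

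Of 63 nuclear genes of oxidative phosphorylation, 4 were higher and 1 lower, although 41 had a negative difference and the median was -0.18. Leaving out 30637, 31266, 33335 or 33573 moved it to -0.11, -0.12, -0.11 or -0.09. NDUFS1, the largest subunit of complex I, had 16.6, 8.22, 11.7, 14.8 and 10.1 FPKM in series 30-31 and 30.3, 30.6, 31.8, 35.6 and 17.3 FPKM in series 33 (log2 difference 1.18, SE 0.22, adjusted p = 0.0199). SDHA of complex II had 0.73, and ATP5F1A and ATP5F1B of ATP synthase had 0.69 and 0.87. NDUFB7, a small complex I subunit, was at 377, 434, 284, 318 and 388 FPKM against 233, 250.1, 209, 225 and 247 FPKM (log2 difference -0.62, SE 0.14, adjusted p = 0.0223). Of 11 mitochondrially encoded genes, 0 were called by limma and 2 were lower at an unadjusted p under 0.05, with a median of -0.32, or -0.55 without 31266.

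Chromatin regulators had 7 of 33 higher and 1 lower. The acetyltransferases KAT2B and CREBBP and the methyltransferase KMT2C were higher at 0.98, 0.66 and 0.85, and the methyltransferase subunit SETD1A was lower at -0.59. Splicing factors had 4 of 35 higher and 3 lower, with a median of -0.21. The helicase SNRNP200 and the spliceosome core protein PRPF8 were higher (0.68 and 0.78). SNRNP70, a protein of the U1 particle, was lower at 553, 878, 493, 405 and 667 FPKM in series 30-31 and 246, 264, 246, 200.5 and 453 FPKM in series 33 (log2 difference -1.09, SE 0.25, adjusted p = 0.0223). Cell cycle genes had 2 of 9 lower, BIRC5 and the mitotic kinase PLK1 (-0.54), and 14 further members were below the filter.

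Of 13 metallothionein and metal genes 1 was called. TFR2, an iron sensor of hepatocytes, was higher at 171, 148, 187, 261 and 161 FPKM in series 30-31 and 376, 359, 463, 353 and 257 FPKM in series 33 (log2 difference 0.96, SE 0.19, adjusted p = 0.0199). In the antioxidant list 3 of 13 were higher, the glutathione synthesis subunit GCLM, the cystine carrier SLC7A11 and the thioredoxin reductase TXNRD1 (0.85, 0.77 and 0.73). In the fetal liver list 1 of 6 was higher, the imprinted gene PEG3 (0.78), and 1 lower, IGF2. Fibronectin (FN1) was the single call of 26 collagen and matrix genes (0.67). PFKFB4, a regulator of glycolysis, was lower as 1 of 12 hypoxia genes (-0.85). The proteasome list had 3 of 29 higher and 0 lower, and 0 of 22 immediate early and heat shock genes were called by limma, with 3 at an unadjusted p under 0.05.

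**Figure D4:**
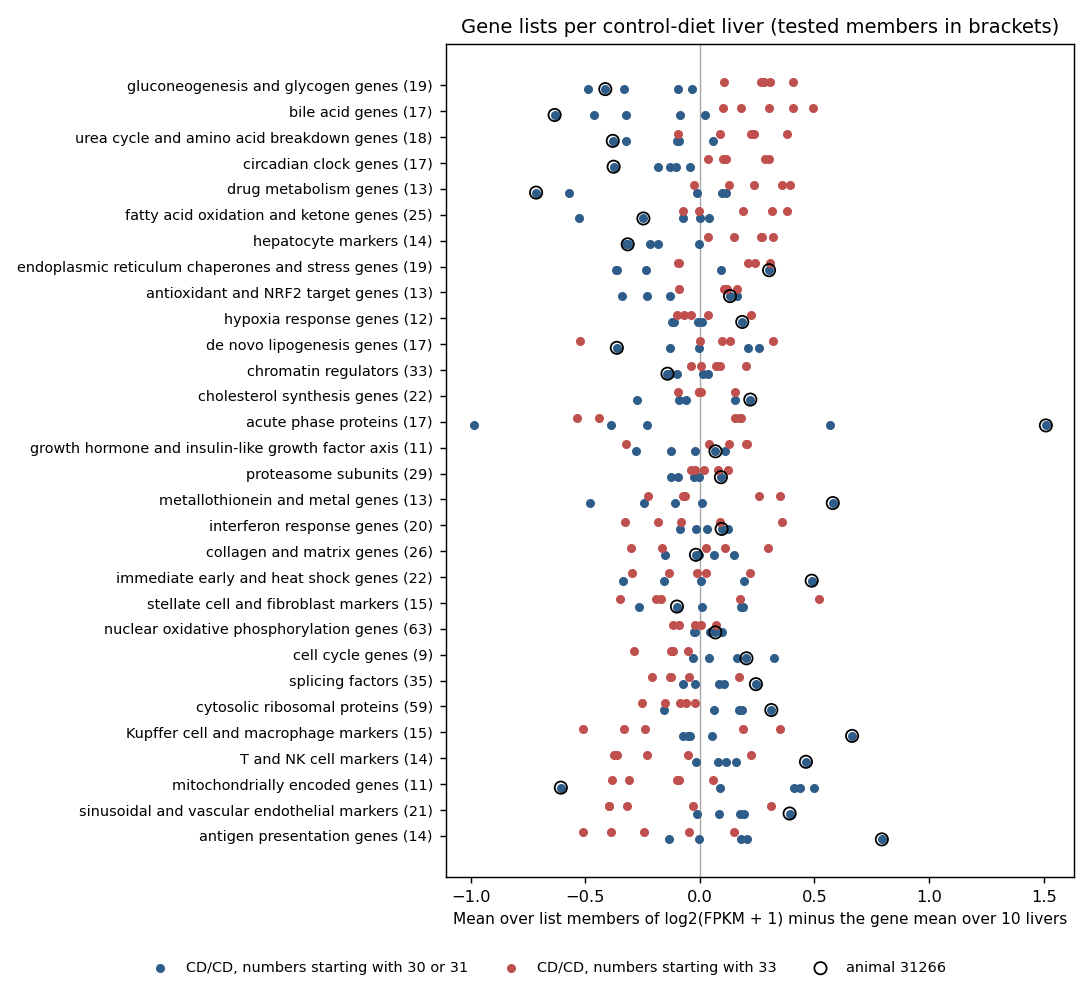
Mean over the tested members of each list with at least 9 of them, Y-linked genes left out, of log2(FPKM + 1) minus the gene's mean over the 10 CD/CD livers (horizontal axis), 1 point per liver, blue for series 30-31, red for series 33, with animal 31266 ringed. Lists are ordered by their median difference, from gluconeogenesis and glycogen at 0.59 to antigen presentation at -0.43, and the acute phase list has the widest spread of those drawn, up to 1.51 in 31266.

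Most markers of endothelial and immune cells had negative differences, 19 of 21 endothelial, 13 of 15 macrophage and 13 of 14 T and NK cell markers among them. Over all tested genes the median difference was 0.03. Markers of a cell type can move together, so these counts are not of independent genes. In bulk RNA, fewer cells of a type and less RNA per cell cannot be told apart. Of the endothelial markers 0 were higher and 2 lower, and the median was -0.34. CLEC4G, a lectin of sinusoidal endothelium, had 13.6, 14.5, 11.9, 9.81 and 26.3 FPKM in series 30-31 and 8.73, 7.54, 7.71, 5.63 and 10.4 FPKM in series 33 (log2 difference -0.80, SE 0.23, adjusted p = 0.0424). STAB1, a scavenger receptor of the same cells, had -0.77. The summed FPKM of this list was 94.7 to 153.9 in series 30-31 and 62.1 to 122.9 in series 33. The 122.9 was in 33335, above 4 of the 5 livers of series 30-31, while the other 4 livers of series 33 reached at most 97.1. This liver was also the highest of the 10 in the mean log2 level of stellate cell markers, 0.52 above the gene means, and of bile duct markers, 0.55 above.

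Macrophage markers had 0 of 15 called by limma and 2 at an unadjusted p under 0.05, with a median of -0.24. The median was -0.11 without 31266, -0.14 without 33316 and -0.16 without 33657. AIF1, a macrophage marker, was at 55.96, 61.6, 56.9, 56.2 and 147 FPKM in series 30-31 and 34.4, 47.4, 45.2, 38.4 and 30.9 FPKM in series 33 (log2 difference -0.83, SE 0.26, adjusted p = 0.0514), without overlap. Summed FPKM of the list was 594 to 1138 in series 30-31, with 1138 in 31266, and 499.9 to 769.98 in series 33. CLEC4F, a Kupffer cell marker of rodents, was at 0 in 9 of 10 livers. The macrophage receptors MARCO and VSIG4, named after their values were seen, were at 11.8 to 57.9 and 42.5 to 157 FPKM.

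Among T and NK cell markers 1 of 14 was lower, the cytotoxic protease GZMB, at 6.08, 5.02, 4.86, 3.51 and 8.80 FPKM in series 30-31 and 2.58, 3.01, 3.499, 1.27 and 2.93 FPKM in series 33 (log2 difference -0.85, SE 0.22, adjusted p = 0.0326). The list's summed FPKM was 19.96 to 38.7 in series 30-31, with 38.7 in 31266, and 12.2 to 26.9 in series 33. Of 4 B and plasma cell markers 1 was lower, MZB1 of antibody-secreting cells (-0.66), and the sums were 7.20 to 12.6 and 4.31 to 6.03 FPKM. MZB1 had a mean of 0.899 FPKM in series 30-31 and 0.169 FPKM in series 33. It passed the filter of 0.5 FPKM only through series 30-31, so its call is no support. The other 8 of the 12 listed B and plasma cell markers were below the filter. Neutrophil markers had 0 of 4 called by limma and 1 at an unadjusted p under 0.05, and S100A12, MPO and MMP8 were at 0 in all 10 livers. Stellate cell markers had 1 of 15 higher, the matrix protein RELN (0.92), and bile duct markers 0 of 6 by limma and 0 at an unadjusted p under 0.05. Red blood cell genes were all below the filter.

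Antigen presentation genes had the lowest median of the lists with at least 9 tested members, -0.43, with 0 of 14 higher and 2 lower. Without 31266 the median was -0.25. CD74, the chaperone of class II molecules, was at 348, 466, 356, 315 and 613 FPKM in series 30-31 and 263, 183, 318, 127 and 143 FPKM in series 33 (log2 difference -1.06, SE 0.27, adjusted p = 0.0298). TAPBP, which loads peptides on class I molecules, had -0.63. The interferon regulator IRF7 was the single call of 20 interferon genes (-0.68). The summed level of the presentation list was 1771 FPKM in 31266 and at most 1105 FPKM in any other liver.

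Hepatocyte markers had 5 of 14 higher and 0 lower, with a median of 0.25. APOB, the structural protein of very-low-density lipoprotein, had 617, 585, 511, 677 and 392 FPKM in series 30-31 and 1296, 1047, 1341, 1372 and 656 FPKM in series 33 (log2 difference 1.01, SE 0.23, adjusted p = 0.0221), with an overlap of 33657 and 30726. The iron carrier transferrin (TF) was called at 0.79. APOA1, the main protein of high-density lipoprotein, and transthyretin (TTR), both named after their values were seen, were at -0.25 and 0.00 and not called (adjusted p = 0.478 and 0.998). In all, 3 of the 14 markers had a negative difference.

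Acute phase proteins are secreted by hepatocytes in inflammation. SAA1, a serum amyloid A protein, was at 1.97, 44.6, 3.73, 3.13 and 706 FPKM in series 30-31 and at 3.26, 2.8997, 3.52, 1.98 and 4.04 FPKM in series 33. Its relative SAA2 was at 0.85, 15.96, 1.21, 2.25 and 222 FPKM and at 1.28, 1.28, 1.52, 0.529 and 0.92 FPKM. Both were high in 31266 and, less so, in 30637, and low in the other 8 livers. C-reactive protein (CRP), named after its values were seen, was at 24.8, 531, 54.5, 120.2 and 1144 FPKM in series 30-31 and 139, 78.1, 92.8, 60.4 and 82.4 FPKM in series 33, with the same 2 livers on top. The acid glycoprotein ORM1, also named afterwards, reached 7682 FPKM in 31266 against 753 to 2529 FPKM elsewhere.

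Of 17 acute phase genes only the copper carrier ceruloplasmin (CP) was called, and it was higher in series 33, with 585, 543, 676, 728 and 951 FPKM in series 30-31 and 1627, 1459.8, 1921, 1055 and 726 FPKM in series 33 (log2 difference 0.91, SE 0.26, adjusted p = 0.0404). The list median of 0.04 turned negative under median-of-ratios scaling (-0.02) and quantile normalization (-0.05), and ran from -0.09 to 0.20 with 1 liver left out. The mean log2 level of the list was 1.51 above the gene means in 31266, 0.57 in 30637 and between -0.98 and 0.18 in the other livers. Its summed FPKM was 72886 in 31266, 46253 in 30637 and 49698 in 33316, so 31266 stood apart by the sum of the list and 30637 did not. Animals 31266 and 30637 also had the lowest first component scores, -43.7 and -37.8, and the part of the acute phase genes in that order was not tested. SAA1 and SAA2 are close copies, so reads may be shared.

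The genes with the largest spread within the ranges were of 3 kinds. Y-linked RPS4Y1, a ribosomal protein, was at 0, 0.115, 64.1, 64.9 and 0.272 FPKM in series 30-31 and at 0.193, 63.2, 0.0519, 53.2 and 0.0371 FPKM in series 33. RPS4Y2 and the helicase DDX3Y followed the same livers, 30639, 30726, 33316 and 33573, and 0 of 8 Y-linked genes were called by limma or reached an unadjusted p under 0.05. Each range had 2 livers with high Y-linked levels, and the mean log2 level of the Y-linked genes was 0.957 ± 1.27 in series 33 and 0.971 ± 1.27 in series 30-31 (SD, n = 5, exact permutation p = 0.802). With this level as a covariate 1819 genes were called.

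SAA1 and SAA2 were the second kind. The third was genes listed at 0 in some livers and at clear levels in others. NOP10, a small protein of the particles that modify ribosomal RNA, was at 45.1, 21.3, 0, 0 and 22.8 FPKM in series 30-31 and 0, 0, 0, 48.5 and 0 FPKM in series 33. SERP1, a protein of the endoplasmic reticulum, was at 19.3, 0, 41.4, 0 and 0 FPKM and 13.3, 0, 0, 20.1 and 28.9 FPKM. TSTD1, NDUFAF8 and the metallothionein MT1F were listed at 0 in 7, 7 and 8 of the 10 livers. Genes such as NOP10 are needed in every cell, so a 0 in this table may be a failed estimate. Of all tested genes 318 had a 0 in at least 1 liver, and 1827 were called when these genes were left out.

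Animal 31266 is the single CD/CD liver whose number starts with 31. Without it, 4 livers of series 30 stood against 5 of series 33, and 743 genes were called, 596 higher and 147 lower, of which 710 were also among the 1666. These 743 genes were chosen without 31266, so its place in them is a separate measurement. It lay nearer to the series 30 mean than to the series 33 mean in 660 of them (88.8%), beyond the series 30 mean in 477 and beyond the series 33 mean in 17. With the series 30 mean set to 0 and the series 33 mean to 1, its median position was -0.21. Genes are not independent of each other, so these counts carry no p-value. The position of 31266 was not measured over all tested genes. Over all tested genes the share called without 31266 was 6.07%. List sizes given here are those tested with all 10 livers. Calls higher in series 33 without 31266 numbered 4 of 19 gluconeogenesis and glycogen genes, 3 of 17 bile acid genes and 3 of 17 clock genes. They numbered 3 of 19 endoplasmic reticulum genes, 4 of 33 chromatin regulators and 1 of 14 hepatocyte markers. Counts this small are not read as a result about a list. Ribosomal proteins had 1 lower. In fatty acid oxidation, endothelial and antigen presentation genes 0 were called by limma without it, with 9, 5 and 4 at an unadjusted p under 0.05. In macrophage, neutrophil and mitochondrially encoded genes, where 0 were called with all 10 livers, 1 each was lower without it, and 6 mitochondrially encoded genes had an unadjusted p under 0.05.

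A few genes were picked for the distance of 31266 from the other livers of its range, and the ranges were not called different in those given here. IGFBP1, a fasting- and stress-responsive binding protein of insulin-like growth factors, was at 83.6, 53.5, 40.9, 53.2 and 589 FPKM in series 30-31 and 40.4, 95.9, 441, 94.6 and 155 FPKM in series 33. The high livers were 31266 and 33335, 1 of each range (log2 difference 0.42, SE 0.74, adjusted p = 0.725). RGCC, a regulator of the cell cycle, was at 13.98, 60.3, 14.8, 8.798 and 199 FPKM and 33.9, 32.6, 108, 14.04 and 13.98 FPKM, again highest in 31266 and 33335 (adjusted p = 0.998). The metalloreductase STEAP4 and the iron hormone hepcidin (HAMP) were at 16.9 and 41.7 FPKM in 31266, each the highest of the 10 livers (adjusted p = 0.589 and 0.988).

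The same number ranges could be set against each other in WSD/CD livers that the CD/CD comparison did not use, 30638 and 30734 against 33337, 33499 and 33500. In this fit of 15 libraries, 393 of 12310 tested genes (3.19%) were called between the WSD/CD ranges, 140 higher and 253 lower in series 33. Of the CD/CD calls 1661 were tested there, and 1543 (92.9%) had the same direction in WSD/CD. Of these 1661, 86 were called in WSD/CD too, which is 5.18% of them and 21.9% of the 393. Among genes called higher it was 1170 of 1254 (93.3%), with a median of 0.66 in WSD/CD and 0.68 in CD/CD. Among genes called lower it was 373 of 407 (91.6%), with medians of -0.50 and -0.67. Over all genes 52.7% were positive and 47.0% negative in WSD/CD, with a median of 0.03. Genes are not independent of each other, so these shares carry no p-value.

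The 3 livers of series 33 in WSD/CD did not behave alike. Relative to the CD/CD mean, the genes called higher had a median of 0.61 in 33499 and 0.50 in 33500, but -0.41 in 33337. The series 30 livers were at -0.37 (30638) and -0.50 (30734). In 33337 these genes thus lay with series 30 and not with its own range. Its mitochondrial share was 5.06% of summed FPKM and that of 30734 was 6.94%, against 1.43% in 33499 and 1.95% in 33500. In CD/CD, the 4 livers of series 30 had shares of 2.44% to 3.46% and medians of -0.52 to -0.16. Series 33 had shares of 1.75% to 2.43% and medians of -0.0028 to 0.56. The genes were chosen from these CD/CD livers, so the split of the CD/CD medians between the ranges was fixed by that choice. Animal 31266 combined the lowest share, 1.33%, with a median of -0.48. The part of the share in these medians was not tested. Without 33337, 2699 genes were called in WSD/CD, and 86, 51, 112 and 94 without 30638, 30734, 33499 and 33500. The Y-linked gene RPS4Y1 was at 44.5 FPKM in 33499, and at 0.0754 to 0.752 FPKM in 30638, 30734, 33337 and 33500. Y-linked level was thus not balanced between the WSD/CD ranges, and its part in the calls was not tested. SAA1 was at 19.4 and 10.2 FPKM in 30638 and 30734, and at 9.66, 106 and 1.25 FPKM in 33337, 33499 and 33500. SAA2 was at 27.8 and 1.34 FPKM and at 2.33, 41.2 and 0.897 FPKM in the same order. The part of SAA1 and SAA2 in the medians was not tested.

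**Figure D5:**
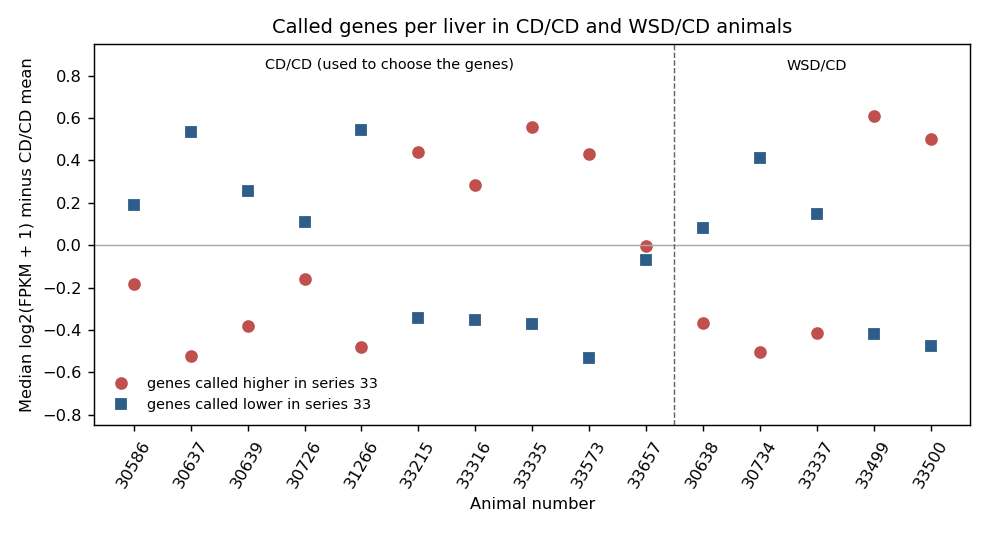
Median over the 1255 genes called higher (red circles) and the 411 called lower (blue squares) in series 33 of log2(FPKM + 1) minus the CD/CD mean (vertical axis), per animal (horizontal axis), CD/CD to the left of the dashed line and WSD/CD to the right. The CD/CD values were used to choose the genes, while in WSD/CD the medians of the higher genes are 0.61 and 0.50 in 33499 and 33500 and -0.41 in 33337.

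GHR was at 9.11 and 4.21 FPKM in 30638 and 30734, and at 7.74, 41.1 and 31.998 FPKM in 33337, 33499 and 33500. RORA was at 1.72 and 1.697 FPKM and at 1.61, 14.1 and 11.2 FPKM, INSR at 3.35 and 1.84 FPKM and at 4.45, 15.1 and 11.3 FPKM. In each of them 33499 and 33500 were high and the other 3 livers low. None of these 3 was called in WSD/CD (adjusted p = 0.163, 0.103 and 0.0674). TSPYL2, lower in CD/CD, was called in WSD/CD too, at 19.5 and 24.4 FPKM in series 30 and 9.72, 7.54 and 5.01 FPKM in series 33 (log2 difference -1.48, adjusted p = 0.0313). Although 1543 of 1661 CD/CD calls kept their direction, some named genes did not repeat their difference. SLFNL1, at -1.24 in CD/CD, was at 0.06 in WSD/CD. PANK1 was at 1.59 and 0.15, and IDI1 at 0.63 and -0.45.

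The range difference itself differed between the diets for 62 genes (0.504% of tested), tested as an interaction, and in 59 of them the WSD/CD difference was below the CD/CD difference. The 5 with the smallest p were high in both series 30 livers of WSD/CD. NR4A3, an inducible nuclear receptor, was at 9.79 and 8.19 FPKM in 30638 and 30734, at 0.54, 0.061 and 0.19 FPKM in the 3 livers of series 33, and at 0.0255 to 1.28 FPKM in CD/CD. Its CD/CD median was 0.148 FPKM, and it passed the filter of 0.5 FPKM only through 30638 and 30734. The interaction p of NR4A3 is therefore no support. FOSL2, a subunit of the AP-1 transcription factor, was at 25.1 and 20.5 FPKM and 2.501, 2.83 and 2.64 FPKM, against 1.62 to 5.09 FPKM in CD/CD. C15H9orf72, whose human counterpart acts in endosome and lysosome traffic, was at 22.9 and 29.6 FPKM and 3.02, 3.88 and 4.54 FPKM, against 3.10 to 6.02 FPKM in CD/CD. GFPT2, of hexosamine synthesis, and FOXRED1, an assembly factor of complex I, followed with interactions of -2.06 and -1.96 on the log2 scale.

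PPARGC1A, among the largest increases of series 33 in CD/CD, had the opposite sign in WSD/CD. It was at 49.6 and 22.97 FPKM in 30638 and 30734 and at 7.96, 7.92 and 12.9 FPKM in 33337, 33499 and 33500 (interaction -3.39, SE 0.63, adjusted p = 0.0244). The WSD/CD difference alone was not called (log2 difference -1.75, adjusted p = 0.0744). The WSD/CD ranges held 2 and 3 livers, and with 1 of the 5 left out the count of interactions ran from 25 to 93.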

How the data were processed

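Per the labels, total RNA was extracted from liver with the Qiagen RNeasy Mini kit, directional mRNA libraries were made with a Swift kit, and paired-end reads came from a NovaSeq instrument. Cufflinks, GSNAP and SAMtools stand in the submitters' processing notes; how they were combined, and on which genome build, is not given in the sources used here. FPKM values of 34882 genes in 33 libraries were deposited by the authors as 1 table, and its columns were assigned to samples by the animal number in the titles. FPKM are not counts, so the depth is unknown and no counting interval can be given. The table's filler for missing values stood in 10 genes of the CD/CD libraries, albumin among them, and these were left out.

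Values were taken as log2(FPKM + 1), a pseudocount of 1, for genes with a mean of at least 0.5 FPKM, and tested with limma 3.58.1 in R 4.3.3 (intensity trend, Benjamini-Hochberg, 8 residual degrees of freedom). Symbols came from the table for 10761 tested genes and from an identifier table for 356, while 1137 had none and 152 shared one. Library measures were compared with an exact two-sided permutation test over the 252 splits of 5 against 5. The WSD/CD ranges and the interaction were fitted over 15 libraries. The gene test was also run on simulated data with independent noise in each gene. Such data lack the variation that genes share in these livers, so they cannot show how calls depend on single livers.

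The animals, the 36 gene lists and the tests were chosen with earlier results of these data known. Named genes follow a rule: the 10 largest increases and 10 largest decreases among called genes with their own symbol and a mean of at least 1 FPKM in the higher range, up to 4 called members of each list with the smallest p (or the 2 smallest p where none was called), the 10 largest spreads within ranges, the 5 smallest interaction p-values and the 5 genes in which 31266 left its range farthest toward series 33. Further list members are named where a call or a direction needs them. Alternatives changed the pseudocount, the filter, the scaling, the libraries fitted, the weights, the moderation, the trend and the covariates, and left out each liver. A correction for transcript length was planned and not run, because no table of transcript lengths was at hand. Further alternatives were added after seeing the data, the fit without genes at 0 and leaving out each WSD/CD liver. A few list members are counted with their lists and not reported here by name.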

Additional observations from a re-analysis of the deposited data

Results flagged for a closer look

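Of 220 groups of 5 livers that were checked, 24 held 1 liver whose gap to the next exceeded 0.71 of the whole range of its group. Chance flags about 1 in 20 groups, but some of these genes were named for their spread or for the place of 31266, so the 24 cannot be read against that rate. The value given is that share of the range. In series 33 the low liver was 33657 for HSP90B1 (0.846), NDUFS1 (0.777), SERPINA10 (0.737), TXNRD1 (0.726) and CYP7B1 (0.719). It was also the high one for the mitochondrial share (0.716). In 33335 the values stood apart for BIRC5 (0.791, low), SLC10A1 (0.761, high), DDX17 (0.719, high), STEAP4 (0.780, high) and NDUFAF8 (1, high). SHISAL2B stood apart in 33215 (0.869, high) and EHHADH in 33316 (0.800, low), and HAMP was listed at 0 in 33573 (0.766).

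In series 30-31 the liver of 31266 was high for AIF1 (0.901), SLC7A11 (0.792) and IGFBP1 (0.735). CYP21A2 was high in 30637 (0.835), where GCLM was low (0.727), and H4C1 was listed at 0 in 30586 (0.824). A share of 1 means that the other 4 livers were at 0: MT1F in 31266 and, in series 33, in 33215, NOP10 in 33573 and TSTD1 in 33316.

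The difference between the number ranges was not the same in CD/CD and WSD/CD for NR4A3, C15H9orf72 and FOXRED1 (limma interaction, adjusted p = 0.000677 each), GFPT2 (adjusted p = 0.00138), FOSL2 (adjusted p = 0.0022) and PPARGC1A (adjusted p = 0.0244). In each, the WSD/CD difference was the lower one. NR4A3 passed the filter on low values only through 30638 and 30734, where it was high, so its p-value is no support.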

How the results depend on the processing

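The count of 1666 genes became 546 with no filter on low values (20039 genes tested), 882 with all 33 libraries in 1 fit and 1 with the mitochondrial share as a covariate, where 3446 genes had an unadjusted p under 0.05. With 1 liver left out it ran from 0 to 2513. The other fits, with pseudocounts of 0.1 and 0.01, other scalings, weights, moderation or the remaining covariates, gave 1510 to 2197 calls. The count of called list genes, 88, ran from 0 to 115 with 1 liver left out. The cause of these shifts was not tested.

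At a pseudocount of 0.1 the first component held 31.5% and the median SD within ranges was 0.33. The WSD/CD count of 393 ran from 51 to 2699 and the 62 interactions from 25 to 93 with 1 liver left out. Left-out livers moved the difference in mitochondrial share between -1.12 and -0.59 percentage points, that in the top 10 share between -3.75 and -1.95 percentage points, that in genes above 0 between -112 and 328.1, and that in Y-linked level between -0.36 and 0.34. ZFY, not called, turned to 0.29 with the mitochondrial share and to 0.59 with relative depth as a covariate, and with 1 liver left out ZFY lay between -0.40 and 0.27 and UTY between -0.10 and 0.34. Of 97 named genes, 85 were called. The all-library fit lost 38 of these calls, the mitochondrial covariate 85, no filter 61, and leaving out 30637 or 33573 85 each.

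No paired analysis was possible because the labels give no replicate numbers. The planned correction for transcript length and the planned slope on length were not run, since no lengths were at hand. Depth is unknown from FPKM.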
